A study of Mus musculus with 54 samples.

Results

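Pax3, Pax7, Six4, Six5, Eya1, Eya2 and Eya4 are transcription factors and coactivators of skeletal muscle progenitors, and their RNA was followed in wildtype and emerin-mutant mouse myogenic progenitors as these cells began to differentiate. The 7 genes were taken by name, through their NCBI gene numbers, from 19653 listed genes, and each is listed in 27 of 27 deposited tables. The cells were H2K myogenic progenitors, a mouse line that proliferates conditionally in the presence of γ-interferon. They were sampled at day 0, already plated at the density used for differentiation and just before the medium was changed, and at days 1 and 2 after the change to horse serum differentiation medium. Emerin is an inner nuclear membrane protein whose loss or mutation causes X-linked Emery-Dreifuss muscular dystrophy. The 6 lines were wildtype, emerin-null (EMD-/y), and EMD-/y progenitors transduced with lentivirus for wildtype emerin (+EMD) or for the disease-causing emerin mutants S54F, del95-99 (a deletion of emerin residues) and Q133H, with 3 libraries at each of 3 days. All 4 transduced lines therefore carry the EMD-/y background. Each construct is represented by 1 selected line, so that effects of the construct and of the line cannot be told apart. Per the study's methods the transduced lines were kept in puromycin and were plated at a higher density than wildtype and EMD-/y cells, so medium, density and transduction cannot be told apart either. The study combined biological with technical replicates and the labels do not say which the 3 libraries are, so every p-value below measures only the spread between these libraries.

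Pax3 and Pax7 are paired-box transcription factors. Pax3 acts in the embryonic muscle progenitors that leave the somite, and Pax7 marks and maintains the satellite cells of adult muscle, where its level falls as myoblasts commit to differentiation. Six4 and Six5 are sine oculis homeobox factors that bind the MEF3 site of muscle promoters such as that of Myog. They bind DNA but rely on Eya proteins, which combine a transactivation domain with a phosphatase domain, to turn target genes on, whereas Dach proteins can act as corepressors in the same complexes. Together with the Pax factors, sine oculis homeobox and Eya proteins act upstream of the myogenic regulatory factors Myf5, Myod1, Myog and Myf6.

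Promoter windows from RefSeq (GRCm38.p6), 250 bases before to 50 after an annotated start, were at hand for 4 of the 7 members, with 1 window for Pax7, 2 for Six4, 1 for Six5 and 2 for Eya4. They were searched on both strands for the E-box CANNTG, the core of the MEF3 site (TCAGGTT) and a palindromic paired-type homeodomain site, motifs whose matches here do not overlap. The first window of Six4 holds the MEF3 core on the opposite strand, starting 97 bases before the start, a motif found in 4.07% of 32851 promoter windows. The windows of Eya4 overlap and hold the same E-box, a motif that occurs in 72.3% of windows. No window holds the homeodomain site, which occurs in 0.390%. The stretches with these matches are shown because Six4 belongs to the family that recognizes the MEF3 site and Eya4 is the most abundant member, and the bases just before the Pax7 start of its window because Pax7 varied most between groups. These stretches lie inside the gene spans given below, so the starts used are not the outermost 5′ ends of those genes. They are printed 5′ to 3′ on the minus strand of mm10/GRCm38, with the matched motif in capitals, and are chr12:73113324-73113353, chr10:23349928-23349957 and chr4:139832969-139832998.
Six4: ggcctgggggaAACCTGAtcggccagatcc
Eya4: tgtttctccccCACTTGtgtaagctatttg
Pax7: gagaggaggatcgcagcaggggtgaaagga

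The deposited tables give pooled values for pairs of groups, from which the read count of each gene in each of 54 libraries was solved. Library totals ran from 15828099 to 19479938 reads. Levels are given as normalized read counts, the reads divided by a median-of-ratios size factor computed here over all 54 libraries. Mouse Emd lay between 1145 and 2051 in wildtype libraries and between 0 and 2.90 in every other library, +EMD included, so reads of the introduced emerin are not seen under the mouse gene. In 2 groups, 1 library stood apart by over 3-fold in Myog, the myogenin gene: Q133H day 0 (11210 against 1861 and 2036) and Q133H day 2 (43957 against 9251 and 11350). Member results that rest on those groups are given with and without that library where the call differs. For other genes this is given for some values only. Markers of myogenic cells summed to between 20925 and 129004 per library. Of the other lists, 6 of 7 fibroblast and fibro-adipogenic markers summed to 6488–30136, mostly Col3a1 (Lum at 0 in 47 of 54 libraries), 4 of 4 smooth muscle and pericyte markers to 996–5187, 4 of 4 adipocyte markers to 1.05–123, 4 of 4 macrophage and leukocyte markers to 12.4–153 (Ptprc at 0 in 35 libraries and Adgre1 in 51), 4 of 4 endothelial markers to 11.8–64.6 and 3 of 4 Schwann and neural crest markers to 5.34–34.5. The smooth muscle and pericyte sum was mostly Notch3 (635–4774) and Cspg4 (34.4–1240), with Rgs5 at most 202 and Myh11 at most 30.1. Notch3 is also among the satellite cell markers used below. In such bulk samples, fewer cells of a type and less RNA per cell cannot be told apart.

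The members spanned a wide range of levels. Per kilobase of the listed transcript length, Eya4 was highest, with a wildtype day 0 mean of 430.0 normalized counts per kb and group means from 206 (Q133H day 1) to 717 (+EMD day 2). Eya1 (121 in wildtype day 0), Six4 (119), Pax7 (75.3), Pax3 (73.3) and Six5 (53.8) followed, and Eya2 was lowest at 5.23 normalized counts per kb. Pax7 varied most between groups, with the highest group mean (+EMD day 0) 951-fold above the lowest (Q133H day 0), which rests on 1, 2 and 4 reads (735-fold to 1465-fold with 1 of these libraries left out). Eya2 varied 133.1-fold, from S54F day 0 to Q133H day 2, but at few reads. The remaining members varied 4.30-fold (Pax3), 3.56-fold (Six5), 3.49-fold (Eya4), 3.34-fold (Eya1) and 2.23-fold (Six4) between the highest and lowest of 18 group means.

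**Figure D1:**
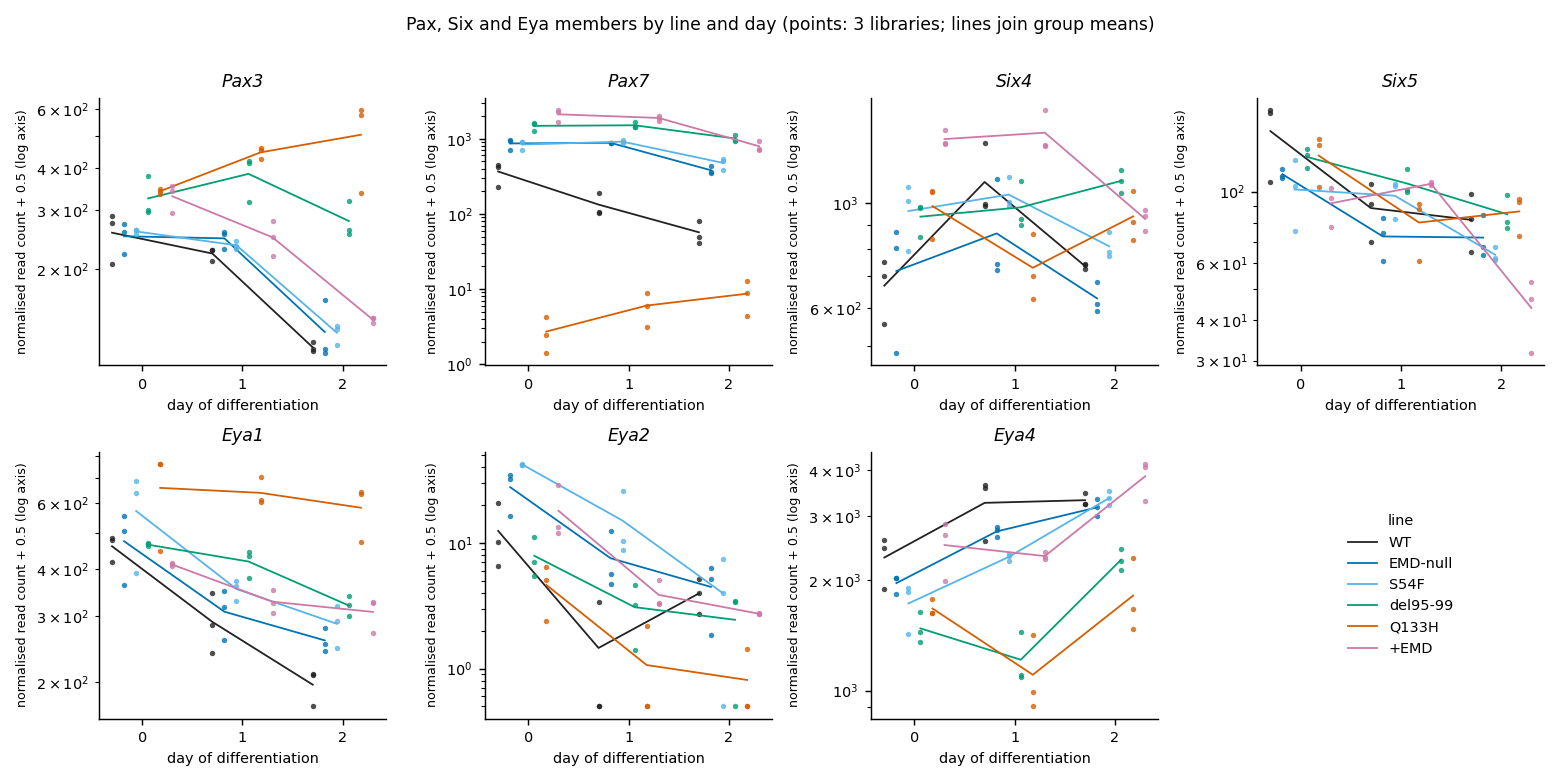
Normalized read count (plus 0.5, log axis) of each member by day of differentiation. Points are the 3 libraries of a group and lines join the group means of the 6 lines. Pax7 separates the lines most widely, with Q133H at 12.2 or below and the other mutant lines and +EMD above wildtype on each day.

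Each of the 5 other lines was compared with wildtype on the same day, to ask which progenitor factors differed from wildtype before and during differentiation. Wildtype and EMD-/y are also 1 line each, and the transduced lines were made from EMD-/y. Emerin status and line of origin therefore cannot be told apart here. The 5 comparisons of a day share the same wildtype libraries. A gene was called where limma's adjusted p was under 0.05 and the change at least 2-fold. Of 105 member values against wildtype, 25 (23.8%) were called, 19 higher and 6 lower, against 13.7% of all gene values in these comparisons, and the median member change was 0.13 on the log2 scale. Pax7 gave 15 of these calls, Eya2 3, Pax3, Eya1 and Eya4 2 each, Six4 1 and Six5 0. In EMD-/y cells 1 of 7 members was called on each day, Pax7, against 5.4%, 4.88% and 6.29% of all genes on days 0, 1 and 2. In S54F 2, 2 and 1 members were called (8.93%, 11% and 10.1% of all genes). In del95-99 1, 2 and 2 were called (9.92%, 18.3% and 20%), in Q133H 1, 3 and 4 (11.8%, 21.4% and 28.7%), and in +EMD 2, 1 and 1 (14.2%, 17.2% and 16.6%). With so few members, a single gene moves such a share widely, and outside Pax7 10 of the remaining 90 values were called.

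Pax7 was called on every day in each of the 5 lines, higher in 4 lines and lower in Q133H. In wildtype its normalized counts were 227, 425 and 446 at day 0, 103, 106 and 189 at day 1, and 40.0, 48.9 and 80.4 at day 2. In EMD-/y they were 718, 927 and 951, then 867, 889 and 890.4, then 349, 357 and 436. On no day did the EMD-/y libraries overlap wildtype. The log2 differences from wildtype were 1.30 ± 0.26 (SE), 2.78 ± 0.23 and 2.79 ± 0.25 on days 0, 1 and 2 (limma adjusted p = 0.0248, 0.000695 and 0.000368). The day 0 call was the least firm: it was lost in 5 of 6 fits with 1 library left out, with a log2 difference of 0.99 without the wildtype library at 227 and an adjusted p of up to 0.109. With the closest pair of libraries in each group averaged, the day 0 calls of EMD-/y and S54F were both lost (adjusted p = 0.164 and 0.114).

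S54F libraries held 704, 896 and 914 counts of Pax7 at day 0, 875, 911 and 957 at day 1 and 389, 503 and 539.6 at day 2. These lay above wildtype on each day and overlapped EMD-/y on each day. The differences from wildtype were 1.25 ± 0.27, 2.84 ± 0.23 and 3.10 ± 0.26 (adjusted p = 0.0201, 0.00017 and 0.000134), and at day 0 the difference was 0.93 without the wildtype library at 227, under the 2-fold threshold, and the call was lost in 3 of 6 fits with 1 library left out. In del95-99 Pax7 stood higher still, with 1282, 1573 and 1595 counts at day 0, 1421, 1427 and 1683 at day 1 and 927, 964 and 1132 at day 2. All 9 del95-99 libraries lay above all EMD-/y and S54F libraries of the same day. The differences from wildtype were 2.09 ± 0.25, 3.55 ± 0.23 and 4.22 ± 0.24, the last an 18.7-fold difference (adjusted p = 0.00131, 4.34e-05 and 1.35e-05).

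The +EMD line, in which wildtype emerin was introduced, did not hold wildtype levels of Pax7. Its libraries held 1685, 2247 and 2407 counts at day 0, 1739, 1914 and 2016 at day 1, and 709, 736 and 937 at day 2. It was the highest line on days 0 and 1 without overlap, and overlapped del95-99 at day 2. The differences from wildtype were 2.58 ± 0.27, 3.88 ± 0.23 and 3.85 ± 0.25 (adjusted p = 0.00044, 3.61e-05 and 2.35e-05).

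Q133H cells held almost no Pax7 RNA. The libraries had 1, 2 and 4 reads at day 0, 3, 6 and 10 at day 1 and 4, 9 and 13 at day 2, or 0.919–3.78, 2.67–8.50 and 3.92–12.2 normalized counts. Every Q133H library lay below every library of the other lines. The log2 differences from wildtype were −7.15 ± 0.49, −4.56 ± 0.45 and −2.80 ± 0.48 (adjusted p = 0.000158, 0.00021 and 0.00304), fitted values that at these counts depend on the prior count of 0.5. Without the Myog-rich library at day 2 that difference was −2.39 (adjusted p = 0.00334). Wildtype Pax7 was itself lower at each later day, and the Q133H libraries of consecutive days overlapped.

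Pax3 was called in 2 comparisons, higher in del95-99 and in Q133H at day 2. Wildtype held 114, 115 and 121 counts at day 2, del95-99 254, 262 and 319, and Q133H 337, 576 and 595. Neither line overlapped wildtype or the other 3 lines at day 2. The differences were 1.26 ± 0.13 in del95-99 (adjusted p = 0.000143) and 2.03 ± 0.22 in Q133H (adjusted p = 0.000487), the latter 2.28 without the library at 337, which is the Myog-rich one. At day 1 the wildtype libraries held 212, 228 and 228 counts, del95-99 318, 415 and 420.3, and Q133H 424, 453 and 458. These differences, 0.76 ± 0.13 (adjusted p = 0.00268) and 0.98 ± 0.09 (adjusted p = 0.00014), passed the adjusted p but not the 2-fold threshold. In EMD-/y the Pax3 differences were −0.02 (95% interval −0.39 to 0.35), 0.14 (−0.09 to 0.37) and 0.13 (−0.29 to 0.54), and in S54F 0.03 (−0.32 to 0.37), 0.09 (−0.12 to 0.29) and 0.13 (−0.17 to 0.43). A 2-fold difference lies outside each of these 6 intervals. In +EMD the differences were 0.38, 0.15 and 0.27, none past the adjusted p. At days 1 and 2 Q133H was thus the line with the most Pax3 and the least Pax7.

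Six4 was called in 1 comparison, higher in +EMD at day 0. There +EMD held 1327, 1335 and 1420.0 counts against 556, 701 and 750.0 in wildtype, with no overlap with any other line. The difference was 1.05 ± 0.12 (adjusted p = 0.000601) and fell to 0.92, below 2-fold, without the wildtype library at 556. In del95-99 Six4 differed by 0.51 at day 0 (adjusted p = 0.0252) and by 0.61 ± 0.07 at day 2 (adjusted p = 0.000186), where 1048, 1112 and 1174 counts stood against 723, 741 and 742. In Q133H the sign varied with the day, at 0.57, −0.62 and 0.32 (adjusted p = 0.0295, 0.0147 and 0.0441). Each of these is less than 2-fold. In EMD-/y the differences were 0.07, −0.38 and −0.23, none past the adjusted p.

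Six5, the other sine oculis homeobox factor among the members, was called in 0 of 15 comparisons by limma, with 2 at an unadjusted p under 0.05. Over all genes, such a p was given to between 4344 of 17704 (EMD-/y day 1) and 10363 of 17518 (Q133H day 2). In wildtype Six5 held 107, 175 and 178 counts at day 0, 69.2, 91.1 and 105 at day 1 and 64.4, 81.5 and 97.8 at day 2. Only +EMD at day 2 passed the adjusted p, with 31.2, 46.1 and 52.1 counts, all below wildtype, and a difference of −0.92 ± 0.26 (adjusted p = 0.0232). The other 14 differences ran from −0.70 to 0.27. The widest of them, +EMD at day 0, had a 95% interval of −1.27 to −0.14.

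Among the coactivators, Eya1 was higher in Q133H during differentiation. Wildtype held 417, 479 and 485 counts at day 0, 239, 284 and 345 at day 1 and 172, 208 and 209.7 at day 2, whereas Q133H held 448, 763 and 763, then 602, 610.5 and 702, then 473, 635 and 641. Q133H was alone at the top without overlap on days 1 and 2 and overlapped wildtype at day 0, where its low library was the Myog-rich one. The differences were 0.49 (adjusted p = 0.151), 1.13 ± 0.15 (adjusted p = 0.000708) and 1.53 ± 0.15 (adjusted p = 0.000327). Without the Myog-rich library the day 0 difference was 0.75 and passed the adjusted p (0.00421) but not the 2-fold threshold. The day 1 difference was 1.00, just under 2-fold, without the wildtype library at 345. At day 2 the other lines gave 0.72 in del95-99 (adjusted p = 0.00141), 0.64 in +EMD (0.00393), 0.52 in S54F (0.0202) and 0.39 in EMD-/y (0.0633), all under 2-fold.

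Eya2 was scarce, and its 3 calls rest on few reads. At day 0 S54F held 41.1, 41.3 and 42.2 normalized counts against 6.05, 9.66 and 20.1 in wildtype, with a difference of 1.92 ± 0.45 (adjusted p = 0.0264). At day 1 S54F held 9, 11 and 28 reads and wildtype 0, 0 and 3. The ratio of summed reads, 48 to 3, was 14.5 (95% exact counting interval 4.66 to 72.5, which covers counting error only), with a fitted difference of 3.86 ± 0.86 (adjusted p = 0.013). EMD-/y at day 1 held 21 reads against 3, a ratio of 7.07 (2.11 to 37.0), which did not pass (adjusted p = 0.0915). At day 2 Q133H held 0, 0 and 1 reads and wildtype 2, 3 and 4, called lower (adjusted p = 0.0117) on a ratio of summed reads whose inverse was 10.8 (1.50 to 475). Both S54F calls were lost without 1 or another library, with adjusted p up to 0.091 at day 0 and 0.057 at day 1.

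Eya4, the most abundant member, was lower in del95-99 and Q133H at day 1. Wildtype held 2564, 3567 and 3640.4 counts at day 1, del95-99 1091, 1103 and 1446, and Q133H 904, 993 and 1414. All 6 mutant libraries lay below every library of the other 4 lines on that day. The differences were −1.43 ± 0.16 in del95-99 (adjusted p = 0.000404) and −1.59 ± 0.20 in Q133H (adjusted p = 0.000557). At day 2 they were −0.52 in del95-99 (adjusted p = 0.000459) and −0.91 ± 0.17 in Q133H (adjusted p = 0.00452). In Q133H the Myog-rich library held 2308 counts against 1474 and 1671, and without it the day 2 difference was −1.11 and past 2-fold. At day 1 S54F and +EMD each stood at −0.47 (adjusted p = 0.0254 and 0.0185) and EMD-/y at −0.25, which did not pass.

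Markers of differentiating muscle, 4 of 6 of which had solved counts, moved with the Pax3, Eya1 and Eya4 results. Their sum at day 1 was 62088–78323 in wildtype, 10232–18787 in del95-99 and 3575–3973 in Q133H, and at day 2 174123–181666, 76925–102384 and 14561–73353. In EMD-/y it was 57141–66059.5 at day 1, where it overlapped wildtype. The summed fibroblast and fibro-adipogenic markers were lower in Q133H at day 1 (6488–9780 against 23213–23844 in wildtype), and the summed macrophage and leukocyte markers higher at day 2 (70.6–153 against 21.1–32.6). Both sums lean on 1 gene. Col3a1 held at least 5863 counts in every library. Over all libraries Cd68 reached 148, against at most 25.7 for Csf1r, 4.56 for Ptprc and 2.34 for Adgre1. The part of these marker differences in the member results was not tested.

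**Figure D2:**
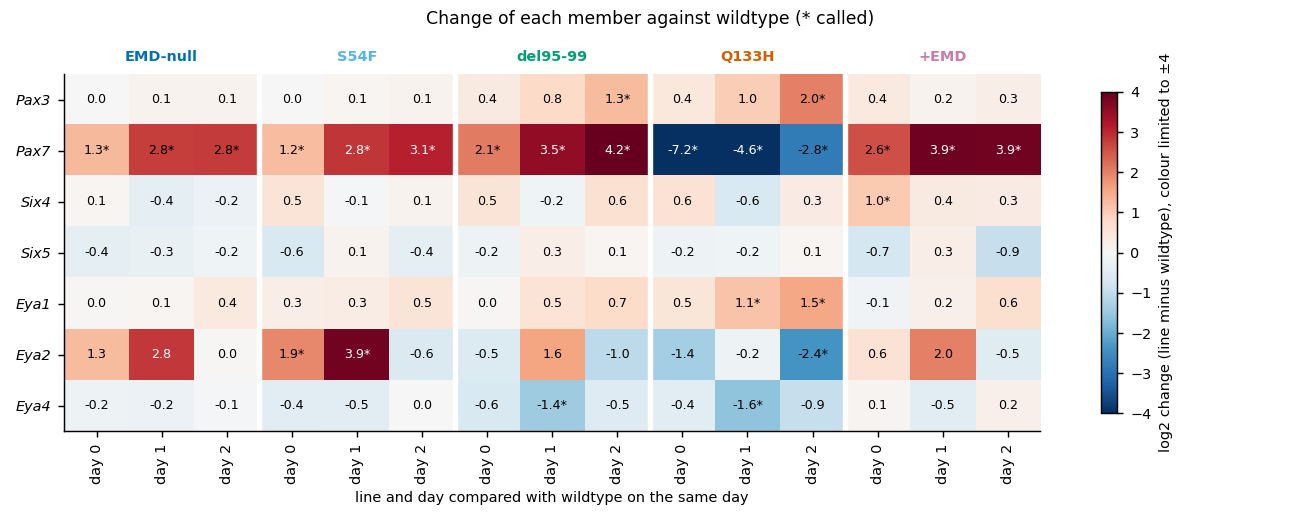
Heat map of the log2 difference from wildtype of the same day for the 7 members (vertical) in the 15 comparisons (horizontal), red higher and blue lower, with the color limited to ±4. An asterisk marks an adjusted p under 0.05 with at least a 2-fold difference. Pax7 carries 15 of the 25 asterisks.

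Within each line, each day was compared with the day before, to follow the factors over the first days after the change of medium. Consecutive comparisons of a line share the libraries of day 1. Of 84 member values, 9 (10.7%) were called and all 9 were lower, against 14.6% of all gene values. Without the fold threshold 40 of 84 passed, 9 higher and 31 lower, against 40.7% of all genes, and the median member change was −0.28 on the log2 scale. From day 0 to day 1 the called members numbered 2 in wildtype (19.8% of all genes), 1 in EMD-/y (17.9%), 1 in S54F (13.9%), 0 in del95-99 (12.4%), 0 in Q133H (8.89%) and 1 in +EMD (15%). From day 1 to day 2 they numbered 1 in wildtype (17.3%), 1 in EMD-/y (15.6%), 0 in S54F (18.3%), 0 in del95-99 (12.3%), 0 in Q133H (6.71%) and 2 in +EMD (17.6%). At an unadjusted p under 0.05, limma gave 5 of 14 values in del95-99 and 6 of 14 in Q133H. Over all genes, 8078 of 17535 to day 1 and 8037 of 17443 to day 2 had such a p in del95-99. In Q133H these were 6996 of 17262 and 5642 of 17296.

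Pax7 fell in wildtype at both steps, by 1.44 ± 0.33 on the log2 scale to day 1 (adjusted p = 0.0103) and by 1.26 ± 0.34 to day 2 (adjusted p = 0.0172). Neither call held when the closest pair of libraries in each group was averaged (adjusted p = 0.0985 and 0.0718), and the second was −0.97, under 2-fold, without the wildtype day 1 library at 189. In EMD-/y, S54F, del95-99 and +EMD the changes to day 1 were 0.04 (95% interval −0.24 to 0.31), 0.15 (−0.10 to 0.40), 0.05 (−0.20 to 0.29) and −0.16 (−0.46 to 0.15). Each interval leaves out the wildtype estimate of −1.44, which itself has an SE of 0.33. The difference from the wildtype step was tested directly by the interaction given below. From day 1 to day 2 Pax7 fell by 1.25 ± 0.10 in EMD-/y (adjusted p = 0.000286) and by 1.27 ± 0.11 in +EMD (adjusted p = 4.53e-05). In S54F (−0.99 ± 0.12, adjusted p = 0.000152) and del95-99 (−0.58 ± 0.10, adjusted p = 0.00297) the change passed the adjusted p alone. In Q133H the values were 1.20 (adjusted p = 0.196) and 0.48 (adjusted p = 0.59), at 1 to 13 reads a library.

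Eya2 fell from day 0 to day 1 in 4 lines, wildtype, EMD-/y, S54F and +EMD. The log2 changes were −3.55 ± 0.86, −1.94 ± 0.52, −1.64 ± 0.43 and −2.15 ± 0.48 (adjusted p = 0.013, 0.0212, 0.0192 and 0.00879). In Q133H and del95-99 they were −2.45 (adjusted p = 0.053) and −1.46 (adjusted p = 0.0868), which did not pass. In wildtype this is 37 reads over 3 libraries at day 0 against 3 at day 1, an 11.96-fold drop in summed reads (counting interval 3.79 to 60.7). With the closest pair averaged, the calls of wildtype, EMD-/y and S54F were lost (adjusted p = 0.0947, 0.177 and 0.132). Six5 fell in +EMD from day 1 (104, 105 and 107) to day 2 (31.2, 46.1 and 52.1), by 1.32 ± 0.23 (adjusted p = 0.00165).

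The remaining members changed by less than 2-fold between days. Pax3 from day 1 to day 2 gave −0.96 in wildtype, −0.97 in EMD-/y, −0.90 in S54F, −0.82 in +EMD and −0.45 in del95-99, each past the adjusted p. In Q133H it gave 0.40 ± 0.08 to day 1 (adjusted p = 0.00971) and 0.08 to day 2. When libraries were scaled by their totals, the day 2 changes of Pax3 in wildtype, EMD-/y, S54F and +EMD were −1.12, −1.18, −1.14 and −1.03 and passed both thresholds. Eya1 gave −0.66, −0.61, −0.64 and −0.34 to day 1 in wildtype, EMD-/y, S54F and +EMD, all past the adjusted p. Eya4 gave 0.51, 0.47 and 0.45 to day 1 in wildtype, EMD-/y and S54F and −0.61 in Q133H. To day 2 it gave 0.93 in del95-99, 0.70 in +EMD, 0.50 in S54F and 0.19 in EMD-/y. These 8 values passed the adjusted p. The Q133H value to day 1 did not pass without the Myog-rich day 0 library (−0.56, adjusted p = 0.0725). Six4 gave 0.74 to day 1 and −0.60 to day 2 in wildtype, a peak at day 1 that lay at 985, 993 and 1337 counts.

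**Figure D3:**
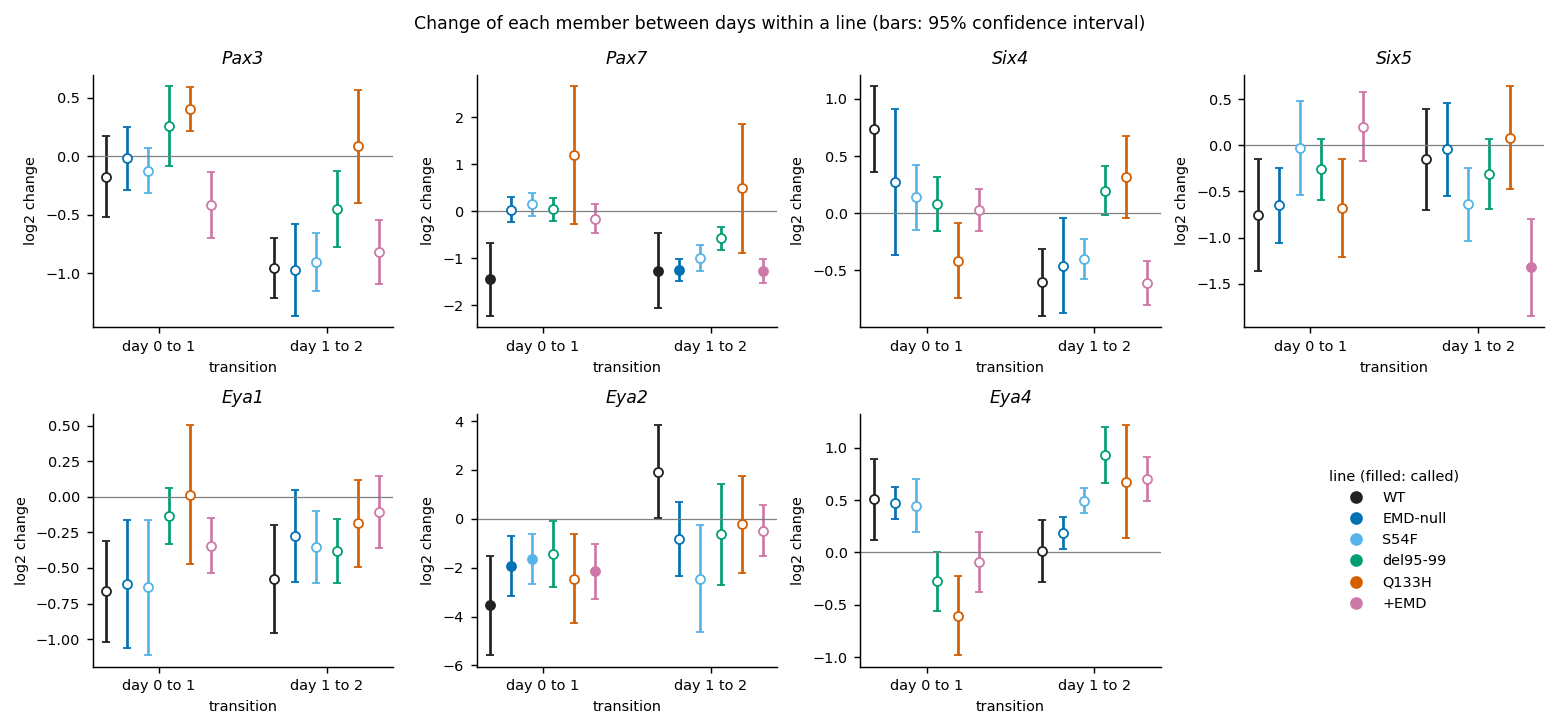
Log2 change of each member between consecutive days in the 6 lines, with 95% confidence intervals. Filled symbols passed an adjusted p under 0.05 with at least a 2-fold change. The 9 filled symbols all lie below 0.

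Whether a line's step between days differed from that of wildtype was tested directly, as an interaction in 1 fit over all 18 groups. Of 70 member values 21 (30%) passed an adjusted p under 0.05, 14 higher and 7 lower than the wildtype step, against 16.1% of all gene values. For the steps to day 1 and to day 2 the counts were 0 and 0 of 7 in EMD-/y (0.448% and 1.04% of all genes), 1 and 1 in S54F (12.6% and 4.21%), 3 and 2 in del95-99 (22.1% and 22.1%), 5 and 4 in Q133H (31.1% and 30.7%) and 3 and 2 in +EMD (18.5% and 17.8%). Pax7 differed from wildtype in its step to day 1 by 1.59 in S54F (adjusted p = 0.0156), 1.49 in del95-99 (0.0149), 1.31 in +EMD (0.0383) and 2.62 in Q133H (1.98e-05), each with an SE of 0.45. The first 3 of these calls were lost with the closest pair averaged (adjusted p = 0.239, 0.175 and 0.307), and in 3, 1 and 7 of the fits with 1 library left out. The Q133H value rests on 1, 2 and 4 reads at day 0 and 3, 6 and 10 at day 1. Its own change over that step was 1.20 (adjusted p = 0.196), set against a fall in wildtype. In EMD-/y the difference was as large as in S54F, del95-99 and +EMD, at 1.50 ± 0.45, with an adjusted p of 0.164. Of the 14 EMD-/y values, 2 had an unadjusted p under 0.05. Over all genes, 1727 of 19646 to day 1 and 1789 of 19646 to day 2 had such a p in EMD-/y. Pax3 differed in Q133H at both steps, by 0.57 (adjusted p = 0.0313) and 1.05 ± 0.21 (adjusted p = 0.000122). The first of these Pax3 calls was lost with the closest pair averaged (adjusted p = 0.267) and in 6 of 12 fits with 1 library left out. Eya4 differed by −1.12 ± 0.21 and then 0.68 in Q133H (adjusted p = 6.68e-05 and 0.0118), and by −0.78 and then 0.88 in del95-99 (adjusted p = 0.00556 and 0.0022). Six4 ran the same course, with −1.16 and then 0.94 in Q133H (adjusted p = 0.00011 and 0.0013) and −0.66 and then 0.76 in del95-99 (adjusted p = 0.0312 and 0.0126). The libraries at day 1, where wildtype Six4 was highest, held 627, 702 and 859 counts in Q133H and 899, 925 and 1108 in del95-99. The del95-99 call of Six4 to day 1 was lost with library totals (adjusted p = 0.0568), with the closest pair averaged (0.208) and in 6 fits with 1 library left out. Its call to day 2 was lost with the closest pair averaged (0.148) and without 1 wildtype day 1 library (0.62, adjusted p = 0.0514). For Eya4, both del95-99 calls and the Q133H call to day 2 were lost with the closest pair averaged (adjusted p = 0.196, 0.155 and 0.195). Without the Myog-rich Q133H day 0 library the Pax3 difference to day 1 was 0.56 (adjusted p = 0.0541), and without the day 2 one the Eya4 difference to day 2 was 0.49 (adjusted p = 0.0642), neither of them past the threshold.

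The transduced lines were also set against the EMD-/y line they were made from, a comparison added with the wildtype results known. Here 17 of 84 member values (20.2%) were called, 8 higher and 9 lower, against 10.3% of all gene values. On days 0, 1 and 2 the counts were 0, 0 and 0 in S54F (1.21%, 4.81% and 1.25% of all genes), 1, 1 and 2 in del95-99 (4.12%, 14.2% and 15.5%), 2, 4 and 4 in Q133H (6.95%, 17.7% and 25.5%) and 1, 1 and 1 in +EMD (8.55%, 12.6% and 10.8%). For S54F, 1 of 21 values passed limma's adjusted p without the fold threshold and 3 an unadjusted p under 0.05. Over all genes, 2940 of 17552, 5784 of 17666 and 3393 of 17503 had such an unadjusted p in S54F on days 0, 1 and 2. The S54F Pax7 differences from EMD-/y were −0.05 (95% interval −0.40 to 0.30), 0.07 (−0.07 to 0.20) and 0.32 (−0.03 to 0.66), so a 2-fold difference lies outside all 3 intervals. In +EMD Pax7 stood 1.28 ± 0.16, 1.10 ± 0.07 and 1.06 ± 0.14 above EMD-/y (adjusted p = 0.00178, 0.000111 and 0.000756). The day 2 difference was 1.00, just under 2-fold, without the EMD-/y library at 349, and 0.93 without the +EMD library at 937. In del95-99 the Pax7 difference was past 2-fold at day 2 (1.43 ± 0.12, adjusted p = 0.00014) and smaller before, at 0.79 and 0.76. In Q133H Pax7 was −8.45 ± 0.41, −7.34 ± 0.36 and −5.59 ± 0.39. Pax3 was higher at day 2 in Q133H (1.90 ± 0.25, adjusted p = 0.00152) and del95-99 (1.13 ± 0.18, adjusted p = 0.00192). Eya1 was higher in Q133H at days 1 and 2 (1.04 and 1.14), and Eya4 lower at day 1 in Q133H (−1.34) and del95-99 (−1.19). Eya2 was lower in Q133H on each day (−2.63, −3.13 and −2.41) and in del95-99 at day 0 (−1.80, adjusted p = 0.0481). The del95-99 call was lost with library totals (adjusted p = 0.0594), with the closest pair averaged (0.263) and in 5 of 6 fits with 1 library left out. The Q133H calls were lost with the closest pair averaged (adjusted p = 0.172, 0.0847 and 0.0578), and in 4, 2 and 4 of 6 fits with 1 library left out. The Q133H day 2 call of Eya2 was lost without the Myog-rich library (adjusted p = 0.0623), while Eya4 at day 2 went from −0.84 to −1.05 and past 2-fold. Six4 and Six5 had 0 calls each in 12 comparisons, with 6 and 4 at an unadjusted p under 0.05. Over all genes, such a p was given to between 2940 of 17552 (S54F day 0) and 9843 of 17816 (Q133H day 2). At an adjusted p under 0.05 alone, Six4 differed in +EMD by 0.97, 0.74 and 0.56, and in del95-99 and Q133H at day 2 by 0.84 and 0.55.

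The other genes of the pathway were described from lists chosen with results of these data known, and a gene is named where it was called the same way in at least 3 of 5 lines on a day or 4 of 6 lines at a step. Of the partner genes of the same families (Six2, Six3, Six6, Eya3, Dach1, Dach2), 27 of 63 tested values (42.9%) were higher than wildtype and 0 lower, against 13.7% of all gene values called in either direction, with list medians of 0.21 to 2.98 per comparison against −0.03 to 0.04 for all genes. Six2, a homeobox factor best known from kidney progenitors, held 3.14–20.3 counts in wildtype and 75.5–564 in the other lines. It was called higher in 5 of 5 lines on each day, by 3.34 to 5.92 on the log2 scale. Dach1, a corepressor of the same complexes, held 153–170 counts in Q133H at day 2, 18.8–32.2 in EMD-/y, 2.33–3.49 in wildtype and 0–2.23 in +EMD, where all libraries of days 0 and 1 had 0 reads. Six3 held at most 7.004 counts and was at 0 in all wildtype libraries of days 0 and 1. Eya3, the remaining Eya gene and named outside the rule after its values were seen, lay between 929.8 and 1767 counts, with differences from wildtype of −0.36 to 0.26. Between days the partners gave 2 higher and 1 lower of 52 tested values (5.77%, against 14.6% of all gene values). For the other Pax genes (Pax1, Pax2, Pax4, Pax5, Pax6, Pax8, Pax9) 0 of 36 tested values against wildtype and 0 of 35 between days were called by limma, with 0 and 1 at an unadjusted p under 0.05.

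**Figure D4:**
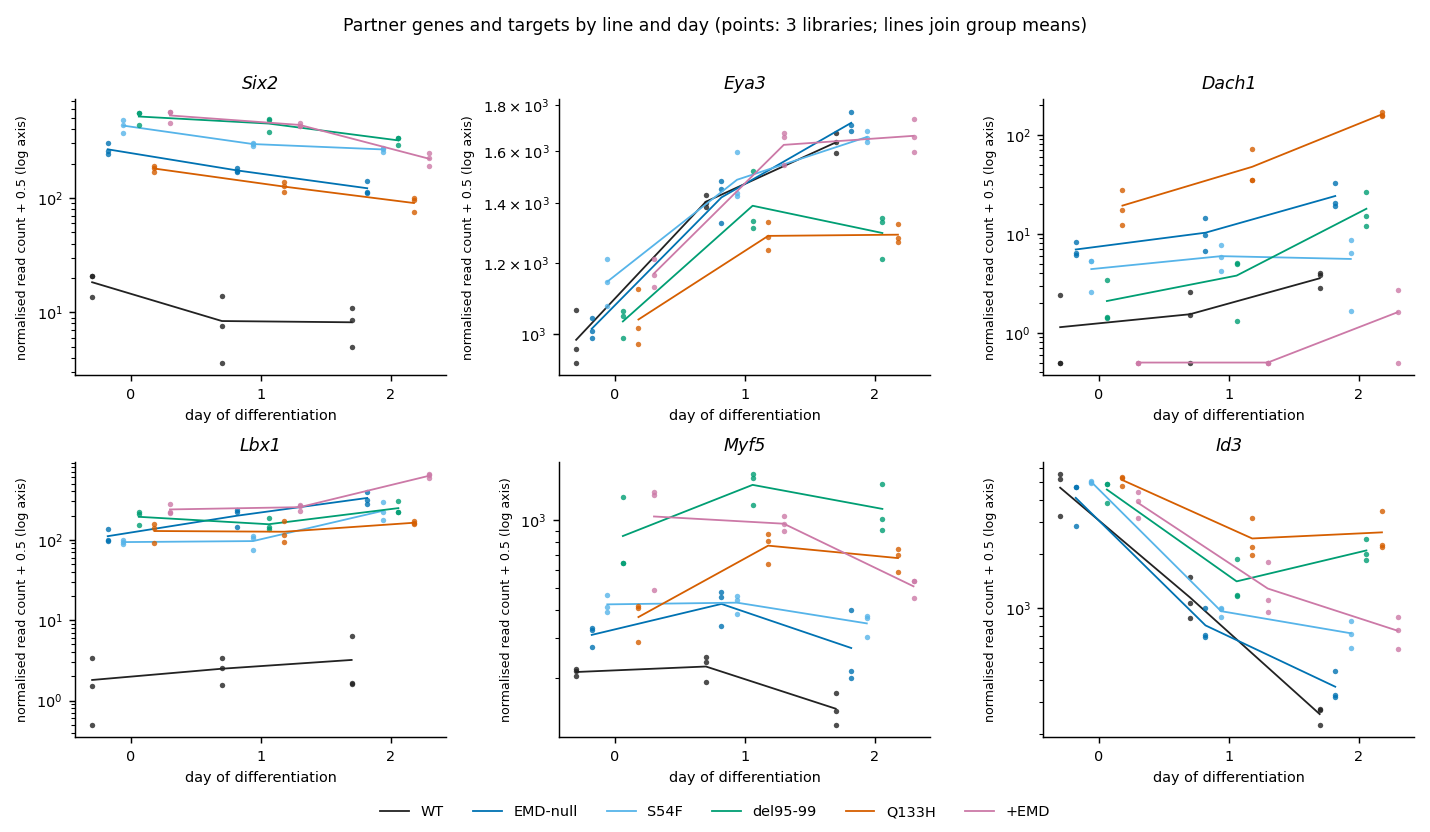
Normalized read count (plus 0.5, log axis) of Six2, Eya3, Dach1, Lbx1, Myf5 and Id3 by day, with 3 library points per group and lines through the group means of the 6 lines. Six2 and Lbx1 separate wildtype from all 5 other lines, whereas Eya3 lies between 929.8 and 1767 throughout.

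Of the genes reported as direct targets of Pax3 or Pax7, 41 of 150 values against wildtype were higher and 16 lower (38% called, against 13.7% of all gene values), with list medians of −0.61 to 1.16 against −0.03 to 0.04 for all genes. Lbx1, a homeobox gene of migrating muscle progenitors and a Pax3 target, held 0–5.82 counts in wildtype and 74.3–655 in the other lines, Q133H included. It was called higher in 5 of 5 lines on each day, by 5.34 to 7.89 in fits that, with wildtype at or near 0, depend on the prior count. Myf5, the myogenic factor linked to Pax7 in satellite cells, was called higher in 9 of 15 comparisons, by 1.95, 2.66 and 2.95 on days 0, 1 and 2 in del95-99, 2.17, 2.11 and 1.81 in +EMD, 1.75 and 2.20 on days 1 and 2 in Q133H and 1.25 at day 2 in S54F. In Q133H at day 2 it thus held 589.6–746 counts against 123–171 in wildtype, although Pax7 lay at 12.2 or below. Id3, an inhibitor of myogenic factors, was higher at day 2 in Q133H (3.30), del95-99 (3.04), +EMD (1.52) and S54F (1.47). Itm2a, a membrane protein gene, was lower in +EMD (−4.15, −3.20 and −2.99), and at day 1 also in Q133H (−1.15) and S54F (−1.05). At day 2 the Q133H difference of Itm2a was −0.95 and not called, but −1.14 (adjusted p = 0.0013) and called without the Myog-rich library.

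Of the myogenic regulatory factors, 9 of 60 values against wildtype were higher, all Myf5, and 7 lower (26.7% called, against 13.7% of all gene values), with list medians of −1.27 to 0.57. Myog was lower in Q133H at days 1 and 2 (−3.74 and −1.74) and in del95-99 at day 1 (−1.98), as were Myf6 in Q133H and del95-99 at day 2 (−2.83 and −1.59) and S54F at day 1 (−2.09). Myod1, named outside the rule, was lower in Q133H at day 1 (−1.61), its only call in 15 comparisons. Without the Myog-rich library the Q133H day 2 differences were −2.45 for Myog and −3.82 for Myf6, and both calls were lost when any other library of that comparison was left out (adjusted p up to 0.131 and 0.108). Myog at day 0 and Myod1 at day 2 were not called in Q133H with all libraries (−1.07 and −0.73). Without the Myog-rich library of the day both were called lower (−1.91 and −1.13, adjusted p = 0.00278 and 0.000192). Between days 13 of 48 values were higher and 0 lower (27.1%, against 14.6%), among them Myf6 to day 2 in 5 of 6 lines (1.89 to 4.71). Of the satellite cell markers, 34 of 281 values against wildtype were higher and 22 lower (19.9%, against 13.7% of all gene values, with medians of −0.57 to 0.71), and between days 36 of 228 were higher and 31 lower (29.4%, against 14.6%). Sdc4, a proteoglycan of satellite cells, and Cd34 were both higher at day 2 in Q133H (2.39 and 4.24), del95-99 (1.80 and 3.20) and +EMD (1.44 and 3.34), with Cd34 in Q133H at 4.85 without the Myog-rich library. Chodl held at most 4.69 counts. Heyl, a Notch target, rose to day 1 in wildtype (2.84), EMD-/y (1.87), S54F (1.74) and +EMD (1.93). In Q133H its change was −2.48 (adjusted p = 0.0456), a call lost in 6 of 6 fits with 1 library left out, with −1.81 (adjusted p = 0.0942) without the Myog-rich day 0 library. Of the genes reported as direct targets of sine oculis homeobox and Eya proteins, 10 of 222 values against wildtype were higher and 49 lower (26.6%, against 13.7% of all gene values, with medians of −1.69 to 0.24), and between days 65 of 180 were higher and 24 lower (49.4%, against 14.6%). Mef2c, a muscle transcription factor, was lower on each day in del95-99 (−2.22, −5.52 and −2.40) and +EMD (−3.21, −4.88 and −1.94), and at days 1 and 2 in Q133H (−3.79 and −2.47). The Q133H day 2 value was −3.32 without the Myog-rich library and its call was lost when any other library was left out (adjusted p up to 0.072), and the del95-99 day 0 call was lost in 2 of 6 such fits (up to 0.0661). Atp2a1, the calcium pump of fast muscle, was lower at day 1 in Q133H (−6.64), del95-99 (−3.53) and +EMD (−1.05, and −0.94, under 2-fold, in the lowest of the fits with 1 library left out). Myc fell to day 1 in 5 of 6 lines, with log2 changes of −2.81 to −1.76, and Tnni2, a fast troponin, held 9025–11240 counts at day 2 in wildtype and 464–2445 in Q133H. Myog belongs to both the myogenic factors and the targets of sine oculis homeobox and Eya proteins, and Myf5 to both the myogenic factors and the Pax targets, so the counts of these lists are not separate.

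Likeness to each member was measured as Pearson's r of the 18 group means of the log2 values among 13231 genes, points that share lines, days and libraries, and is given as a description only. Pax7 was most like Pcdhga7 (0.96), Nynrin (0.95) and Nfatc4 (0.93). Pax3 was most like Foxl1, Notch2 and Phtf1 (0.96 each), and Eya4 most like Dapk2 (0.96), Ssbp3 (0.95) and Dok7 (0.95). Eya1 was most like Bambi (0.95), Hmga2 (0.94) and Prl2c3 (0.94), Six5 most like Ext2 (0.88), Ptger4 (0.88) and Nacc2 (0.86), Eya2 most like Cd276 (0.91), Qrfp (0.91) and Cdsn (0.89), and Six4 most like Atrnl1 (0.85), Ifnlr1 (0.82) and Prdm15 (0.80). Among the members themselves Pax3 ran with Eya1 (0.83) and against Eya4 (−0.84), Eya1 ran against Eya4 (−0.81), and Pax3 and Pax7 were weakly related (−0.28). In mm10 coordinates the members lie at chromosome 1, 78101267–78197136 (Pax3) and 14168953–14311035 (Eya1), chromosome 4, 139737059–139833530 (Pax7), chromosome 12, 73099609–73114031 (Six4), chromosome 7, 19094544–19098549 (Six5), chromosome 2, 165595028–165771727 (Eya2), and chromosome 10, 23102962–23350838 (Eya4). Six4 overlaps Mnat1 (767–1418 counts), and Pax7, Six5, Eya2 and Eya4 overlap other annotated genes (Gm46873, Bhmg1, Gm29993 and Gm24655). The strand used in counting is not given in the sources used here, so reads of such neighbors cannot be told apart from the members' own.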

How the data were processed

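Poly-A RNA was sequenced from 54 libraries (18 groups of 3). Per the labels and the study's methods, the authors filtered reads with SOAPnuke, aligned them with HISAT2 to mm10 and compared group pairs with DESeq2. The counting tool and its strand setting are not given in the sources used here. The 27 tables deposited by the authors hold a signal value for each of 2 groups per gene, normalized by DESeq2 size factors: tested on the files, the sum of the pair steps by single reads of 6 libraries, whereas its ratio carries the authors' shrunken fold change and was not used. The authors' columns of log2 fold changes, p-values and q-values were not used either. Whole read counts per library were solved from these sums by lattice reduction (SymPy 1.14.0, NumPy 2.4.6, Python 3.11.15) for 19646 of 19653 genes (99.96%; Acta1 and Myh3 are among those not solved), with 8511 of 8511 single-read genes linking the tables consistently. Solved libraries carry no replicate number. Gene lengths are the median of the deposited length column. Symbols were matched for 90.7% of identifiers (1828 unmatched), and 0 columns of per-sample values were left unused.

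Counts divided by the size factors were tested as log2(value + 0.5) with limma 3.58.1 (R 4.3.3, trend, two-sided, Benjamini-Hochberg over all genes), with the 2 groups of a comparison in a fit, and with all 18 groups for the interaction. A log2 difference on this scale understates changes of low genes. The solving of counts from sums was tested on simulated counts. Within a group the closest pair of libraries differed by 1.25–2.01 counting SDs, the middle pair by 1.93–4.79 and the farthest by 2.09–5.12. All 3 were kept, and whether any pair are technical replicates was not tested. The members, lists and comparisons were chosen with earlier results of these data known. Named list genes were those called the same way in at least 3 of 5 lines on a day or 4 of 6 lines at a step, at most 4 a list by the largest smallest change. Eya3 and Myod1 were named outside this rule. Alternatives were library totals, a prior count of 2, a mean of at least 10, voom weights, other group sets in the fit, no fold threshold, the deposited means alone and each library left out. Averaging the closest pair, leaving out libraries in the interaction, the comparison with EMD-/y, and leaving out the Myog-rich libraries were chosen after seeing the data. A gene of the partner list is not reported here.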

Additional observations from a re-analysis of the deposited data

Results flagged for a closer look

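The step between days differed from that of wildtype, by the interaction test over all 18 groups (limma adjusted p under 0.05), for 21 member values. They are given as the line's log2 change minus that of wildtype. From day 0 to day 1, Pax7 differed by 2.62 in Q133H, at 1 to 10 reads a Q133H library. Over that step it differed by 1.59 in S54F, 1.49 in del95-99 and 1.31 in +EMD. Over the same step Six4 differed by −1.16 in Q133H, −0.68 in +EMD and −0.66 in del95-99, and Eya4 by −1.12 in Q133H and −0.78 in del95-99. Eya1 differed by 0.68 and Pax3 by 0.57 in Q133H, and Six5 by 0.99 in +EMD. From day 1 to day 2, Pax7 differed by 1.75, Pax3 by 1.05, Six4 by 0.94 and Eya4 by 0.68 in Q133H. In del95-99 Eya4 differed by 0.88 and Six4 by 0.76. In +EMD Eya4 differed by 0.68 and Six5 by −1.19, and in S54F Eya2 differed by −4.46 at 0 to 28 reads a library. The Q133H Pax7 value to day 2, at 3 to 13 reads a library, did not pass with voom weights (adjusted p = 0.14), with the closest pair averaged (0.0999) or with only the 4 groups of the contrast fitted (0.0935). Over the same step the Q133H Eya4 value did not pass with those 4 groups alone (adjusted p = 0.101) or without the Myog-rich day 2 library (0.0642). The Six4 value to day 1 in +EMD did not pass with library totals (adjusted p = 0.0608) or with the closest pair averaged (0.197). With that pair averaged, the +EMD values of Eya4 to day 2 (0.321) and Six5 to day 1 (0.168) were also lost. Both were lost too in 4 and 2 of 12 fits with 1 library left out. The S54F Eya2 value was lost with the pair averaged (0.266), with the 4 groups alone (0.0725) and in 4 of 12 such fits. Of the 21 calls, 6 were kept with the closest pair averaged. Without the Myog-rich Q133H day 0 library the Eya1 difference to day 1 was 0.42 (adjusted p = 0.184).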

How the results depend on the processing

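No paired analysis was possible because the libraries solved from the sums carry no replicate number. Of the member values, 25 were called against wildtype, 9 between days, 21 in the interaction and 17 against EMD-/y. Without the fold threshold 44 of 105 passed against wildtype, 40 of 84 between days and 36 of 84 against EMD-/y. Over all genes, 86459 of 262310, 85460 of 209894 and 56446 of 211617 values did. With library totals 15 were called between days, the 6 added ones all lower. With the closest pair of libraries averaged 4 were called between days and 6 in the interaction, which that alternative fits with fewer libraries. With each library left out in turn the counts were 22 to 28 against wildtype, 8 to 11 between days, 14 to 23 in the interaction and 15 to 17 against EMD-/y, and 19 of 25, 5 of 9, 9 of 21 and 11 of 17 calls were kept in all of these fits. No member call reversed its direction in the alternatives with a test. The deposited means gave only counts past 2-fold, 27 against wildtype and 12 between days. Library totals shifted the median of all genes by over 0.1 in 5 of 12 day comparisons and 4 of 15 against wildtype, by −0.22 to 0.06 and −0.04 to 0.25. Eya2 and the Q133H values of Pax7 are limited by depth.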
